A study of Mus musculus with 8 samples.

Results

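A set of 9 genes of the retinoic acid pathway was described in cultured mouse bone marrow MSCs (mesenchymal stem cells). They were Aldh1a1, Aldh1a2 and Aldh1a3, Crabp1 and Crabp2, Rara, Rarb and Rarg, and Cyp26b1, found by gene name as 9 of the 47643 named genes of the expression table. They were chosen because of how some of them moved between the genotypes, so their differences between genotypes are given as a description, without a test. RNA-seq was available from 2 control libraries and 2 knockout libraries, and MeRIP-Seq, which sequences RNA fragments pulled down by an antibody to N6-methyladenosine (m6A), from 2 immunoprecipitates and 2 inputs.

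All mice were on the C57BL/6 strain, and every culture received osteogenic medium for 2 days, which held dexamethasone (100 nM), ascorbic acid (50 µg/ml) and β-glycerophosphate (5 mM). The control libraries are labelled wild type, and the study's text describes them as Mettl3fl/fl controls. The knockout libraries carry Prx1-Cre;Mettl3fl/fl, in which Cre under a limb mesenchyme enhancer of Prrx1 deletes floxed Mettl3, the catalytic subunit of the m6A methyltransferase. The MeRIP-Seq samples are labelled wild type. Neither the age of the mice behind these libraries nor whether animals were pooled is given, so the replicates may be technical, and p-values then measure only the spread between these libraries.

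Retinoic acid is made from vitamin A (retinol) in a chain of oxidations. Alcohol dehydrogenases and short-chain reductases convert retinol to retinaldehyde, and the retinaldehyde dehydrogenases Aldh1a1, Aldh1a2 and Aldh1a3 convert retinaldehyde irreversibly to retinoic acid. Inside the cell retinoic acid is bound by Crabp1 and Crabp2, acts through the nuclear receptors Rara, Rarb and Rarg paired with Rxr proteins, and is cleared by the Cyp26 hydroxylases. In the skeleton it is known for its part in limb patterning, cartilage formation and osteoblast maturation.

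The libraries held 23978099 to 34106693 counts. Mettl3 itself measured 17.6 and 16.9 CPM (counts relative to the TMM-scaled library size) in controls against 17.5 and 16.3 CPM in knockouts. Its log2 fold change was −0.03 with a standard error (SE) of 0.0929, and its p after Benjamini-Hochberg adjustment was 0.824 by the quasi-likelihood test of edgeR. The deletion is not checked by these counts, which sum reads over the whole gene, and Tox4 overlaps it on the other strand. The libraries are therefore called control-labelled and knockout-labelled, and every direction below rests on those labels. The biological coefficient of variation was 12.3% between the control-labelled libraries and 1.90% between the knockout-labelled ones. Because of that small spread, counts of calls are also given after summing the knockout-labelled pair into 1 sample. Stromal and macrophage markers were looked at beside the MSC label, and transcripts of both kinds were present in all 4 libraries. All 12 stromal markers and all 12 macrophage markers passed the filter on low counts, and none was at 0. Passing that filter does not test the label. Per length, the macrophage lysozyme Lyz2 measured 14418 to 21709 TPM (a measure scaled for gene length and library size) across the 4 libraries. The collagen gene Col1a1 measured 297 to 434 TPM. Lyz2 was the highest of the macrophage markers. Others were lower, with C1qb at 3052 to 4174, Adgre1 at 253 to 332 and Fcgr1 at 10.1 to 11.3 TPM. Among stromal markers Col1a2 measured 277 to 569 and Lepr 0.21 to 0.60 TPM. No share of cells follows from these levels.

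Aldh1a1 stood out among the 9 genes by level. It was the most abundant of them per length in every library, at 59.3 and 55.1 TPM in the control-labelled libraries and at 478 and 475 TPM in the knockout-labelled ones. Rarb and Aldh1a2 were also higher in both knockout-labelled libraries, while Aldh1a3, Rarg and Cyp26b1 were lower in both. Over all 15327 genes tested, 30.5% were called at an adjusted p under 0.05 by edgeR's quasi-likelihood test, 13.7% higher and 16.8% lower. Of the 9 genes, 8 passed the filter, and of these 3 were called higher, 3 lower and 2 not. In 7 of the 8 the 2 groups did not overlap in CPM, beside 68.9% of all genes tested. After summing the knockout-labelled pair, Aldh1a1, Aldh1a2 and Rarb were the 3 still called. Since the same contrast chose the genes, nothing is read from these counts.

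**Figure D1:**
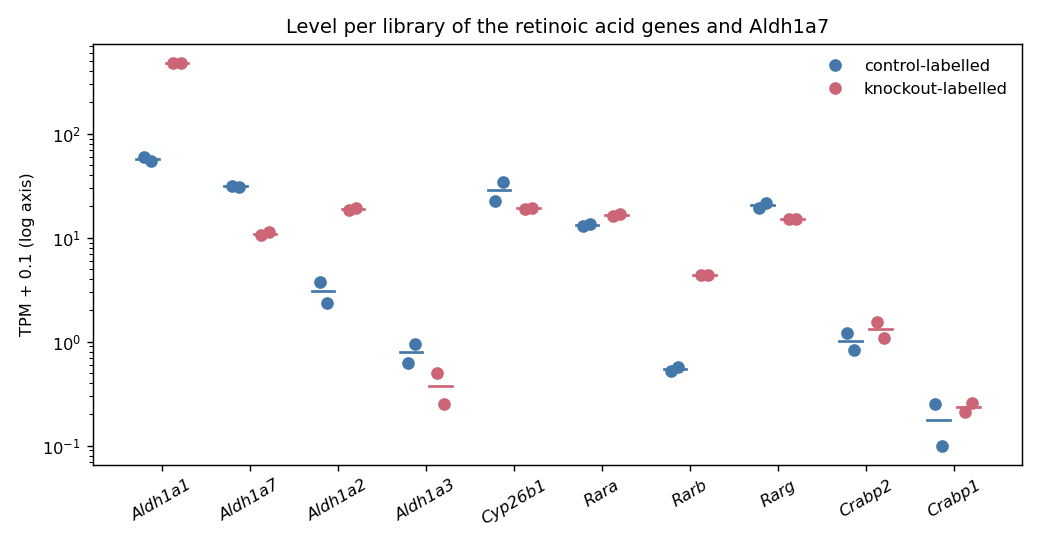
Level of the 9 retinoic acid genes and of Aldh1a7 in each library, as TPM + 0.1 on a log axis, with a point per library and a line at each group's mean (n = 2). Aldh1a1 lies at 478 and 475 TPM in the knockout-labelled libraries and at 59.3 and 55.1 TPM in the control-labelled ones, and Aldh1a7 moves the other way.

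The 3 upstream sequences below are shown because the genes next to them moved most, or moved in opposite directions from near-identical sequence. They were read from RefSeq on GRCm38.p6, whose windows reach 250 bases before and 50 bases after each start site, and 7 of the 9 genes matched one (Aldh1a3 and Crabp2 did not). The Rarb sequence covers bases −120 to −1 from the start site (chr14:16575477-16575596, minus strand). Capitals mark each retinoic acid receptor half-site (AGGTCA, with G also allowed as its first base and T also allowed just before TCA) on the strand shown.

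Rarb: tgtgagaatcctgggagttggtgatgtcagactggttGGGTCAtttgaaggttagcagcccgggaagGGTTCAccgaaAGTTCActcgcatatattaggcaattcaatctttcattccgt

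The last 2 half-sites lie 5 bases apart (chr14:16575513-16575529, bases −53 to −37). Such a direct repeat with a spacing of 5, called DR5, is the textbook binding site of retinoic acid receptors. Searched on both strands, DR5 was present in the windows of 31 of 27025 genes (0.115%) and of 1 of the 7 of these genes that have a window. Of 42 other retinoid genes with a window only Cyp26a1 held one, at bases −32 to −16 on the opposite strand (chr19:37697776-37697792), shown for comparison, all of it in capitals as the match itself and read along that strand.

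Cyp26a1: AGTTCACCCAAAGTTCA

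The Aldh1a1 and Aldh1a7 sequences cover bases −100 to −1 (chr19:20601868-20601967, plus strand, and chr19:20727557-20727656, minus strand). Capitals mark CCAAT, found on either strand in 37.4% of all windows, and the octamer ATGCAAAT, found in 1.74%.

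Aldh1a1: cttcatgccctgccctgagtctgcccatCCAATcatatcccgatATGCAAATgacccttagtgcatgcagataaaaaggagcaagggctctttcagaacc

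Aldh1a7: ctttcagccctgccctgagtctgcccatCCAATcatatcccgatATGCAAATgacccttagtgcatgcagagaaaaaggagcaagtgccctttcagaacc

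These 2 sequences were identical at 94 of 100 bases, with a longest identical run of 65 bases from −94 to −30. Both hold the octamer at bases −56 to −49. The window of Aldh1a2 also holds an octamer, at bases −84 to −77. The direct repeat with a spacing of 2 (DR2) was in the windows of 0.311% of genes and of none of the 7. A match is a description of the letters only.

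Aldh1a1 (ENSMUSG00000053279, chr19:20601961-20643462 on GRCm38, plus strand) encodes retinaldehyde dehydrogenase 1, which is also used as a stem cell marker enzyme in many tissues. It measured 81.3 and 77.6 CPM across control-labelled and 620.4 and 615 CPM across knockout-labelled libraries. Both knockout-labelled libraries were far above both control-labelled ones, and the replicates lay close together in each group. The group means were 79.5 ± 2.59 and 618 ± 3.82 CPM (SD, n = 2), and the log2 fold change was 2.96 (SE 0.0629). Among all genes tested, 72 had a larger log2 fold change.

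Aldh1a2 (ENSMUSG00000013584, chr9:71215789-71296243) encodes the enzyme that makes most retinoic acid in the embryo. It measured 5.65 and 3.54 CPM across control-labelled and 26.5 and 27.9 CPM across knockout-labelled libraries. The groups did not overlap, and the log2 fold change was 2.55 (SE 0.195).

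Aldh1a3 (ENSMUSG00000015134, chr7:66390890-66427517) encodes the third retinaldehyde dehydrogenase. It was low, at 38 and 50 counts in the control-labelled libraries and 13 and 11 in the knockout-labelled ones. In CPM these were 1.12 and 1.77 against 0.536 and 0.345, without overlap, and the log2 fold change was −1.72 (SE 0.424).

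Added per length, the 3 enzymes reached 63.5 and 58.2 TPM in the control-labelled libraries and 496 and 494 TPM in the knockout-labelled ones. Aldh1a1 made up 93.4% and 94.7% of that sum in the control-labelled libraries and 96.2% and 96.1% in the knockout-labelled ones. Aldh1a2, although it was higher in the knockout-labelled libraries, held 5.80% and 3.87% of the sum in the former and 3.68% and 3.90% in the latter, which overlap. The share of Aldh1a3 did not exceed 1.46% in any library. In a bulk sample, fewer cells of a type and less RNA per cell cannot be told apart, which applies to every gene described here.

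Aldh1a7 (ENSMUSG00000024747, chr19:20692953-20727562, minus strand) is the closest relative of Aldh1a1, 49491 bases beyond its end on the opposite strand. Its coding sequence, taken from GENCODE vM1, matched that of Aldh1a1 at 1380 of 1506 bases (91.6%), while the other pairs among these 4 genes matched at 69.2% to 70.9%. It measured 43.1 and 44 CPM across control-labelled and 13.7 and 14.7 CPM across knockout-labelled libraries. It thus fell where Aldh1a1 was higher, without overlap, and its log2 fold change was −1.62 (SE 0.0824, adjusted p = 6.3e-05, edgeR). The ratio of Aldh1a1 to Aldh1a7 in TPM was 1.90 and 1.78 in the control-labelled libraries and 45.8 and 42.2 in the knockout-labelled ones. Of the 2004 windows of 50 bases in the Aldh1a1 transcript, 151 also occurred in Aldh1a7, so that short reads from those stretches could be split between the 2 genes, and both levels are uncertain to that extent.

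**Figure D2:**
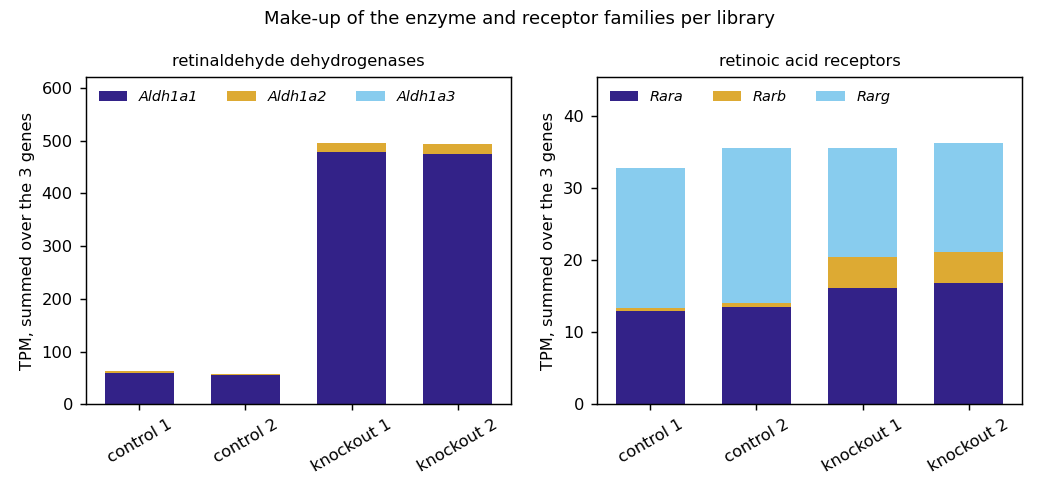
Stacked TPM of the 3 retinaldehyde dehydrogenases (left) and the 3 retinoic acid receptors (right) in each of the 4 libraries, with axes starting at 0. The enzyme sum lies between 58.2 and 63.5 TPM in the control-labelled libraries and at 496 and 494 TPM in the knockout-labelled ones, while the receptor sum lies between 32.7 and 36.3 TPM in all 4 and changes in make-up.

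Crabp1 and Crabp2, which carry retinoic acid in the cytoplasm, were near the limit of detection. Crabp1 (ENSMUSG00000032291, chr9:54764748-54773110) had 2, 0, 1 and 2 counts in control-labelled replicates 1 and 2 and knockout-labelled replicates 1 and 2, was not tested, and is given no fold change since no library passed 3 counts. Crabp2 (ENSMUSG00000004885, chr3:87948666-87953376) had 19 and 11 counts against 17 and 15. In CPM these were 0.562 and 0.389 against 0.702 and 0.471. The groups overlapped, and the log2 fold change of 0.27 had a standard error of 0.439 and a 95% confidence interval from −0.79 to 1.33, so no difference was detectable at this depth.

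The 3 receptors differed from each other in direction. Rarb (ENSMUSG00000017491, chr14:16430842-16575472), which carries the DR5 shown above and is the textbook example of a gene induced by retinoic acid, had 30 and 29 counts in the control-labelled libraries and 209 and 276 in the knockout-labelled ones. In CPM these were 0.887 and 1.03 against 8.63 and 8.66. The groups lay far apart with little spread inside each, and the log2 fold change was 3.18 (SE 0.183), the largest among the 8 of the 9 genes that were tested.

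Rara (ENSMUSG00000037992, chr11:98927818-98974942), the receptor found in most tissues, measured 25.8 and 26.9 CPM across control-labelled and 29.8 and 31 CPM across knockout-labelled libraries. The groups did not overlap, but the difference was small, with a log2 fold change of 0.21 (SE 0.0781). Rarg (ENSMUSG00000001288, chr15:102234938-102257517), known for its part in cartilage and skin, measured 36.9 and 41.3 CPM against 26.5 and 27.6 CPM. It was lower in both knockout-labelled libraries, with a log2 fold change of −0.53 (SE 0.0865).

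Added per length, the 3 receptors gave 32.7 and 35.5 TPM in the control-labelled libraries and 35.5 and 36.3 TPM in the knockout-labelled ones, so that their sum differed little while its make-up shifted. Rarg held 59.1% and 60.5% of it in the control-labelled libraries and 42.4% and 41.8% in the knockout-labelled ones. Rara held 39.7% and 38.1% against 45.5% and 46.3%. Rarb went from 1.28% and 1.33% to 12.1% and 11.9%. For all 3 shares the 2 groups were apart by more than their replicates.

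Cyp26b1 (ENSMUSG00000063415, chr6:84571414-84593908), which hydroxylates retinoic acid for removal, measured 70.9 and 109.5 CPM across control-labelled and 56.5 and 57 CPM across knockout-labelled libraries. The control-labelled libraries differed widely from each other, and the lower of them stood only slightly above the knockout-labelled pair. The log2 fold change was −0.67 (SE 0.187). The ratio of Aldh1a1 to Cyp26b1 in TPM was 2.61 and 1.61 in the control-labelled libraries and 25.2 and 24.7 in the knockout-labelled ones.

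By TPM the 9 genes ranked, in the control-labelled libraries, as Aldh1a1 (57.2 ± 2.93), Cyp26b1 (28.5 ± 8.19), Rarg (20.4 ± 1.52), Rara (13.3 ± 0.389), Aldh1a2 (2.97 ± 1.01), Crabp2 (0.925 ± 0.276), Aldh1a3 (0.69 ± 0.226), Rarb (0.445 ± 0.0354) and Crabp1 (0.075 ± 0.106), each as mean ± SD with n = 2. Of these neighbours only Crabp2 and Aldh1a3 overlapped in their libraries. In the knockout-labelled libraries Aldh1a1 (476 ± 1.93) stayed first. Cyp26b1 (19.1 ± 0.17) and Aldh1a2 (18.8 ± 0.707) overlapped behind it. Rara (16.5 ± 0.446) now stood above Rarg (15.1 ± 0.0919). Rarb (4.30 ± 0.0283) and Crabp2 (1.22 ± 0.339) followed, and the last pair, Aldh1a3 (0.275 ± 0.177) and Crabp1 (0.135 ± 0.0354), overlapped.

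The other retinoid genes were counted over 4 lists arranged by role. These lists, and those of other aldehyde dehydrogenases and of cell type markers, were drawn up with earlier results of these data known. Their shares called are therefore given as a description. Of 63 genes, 45 were tested, 10 rose and 13 fell by edgeR's quasi-likelihood test (51.1% called, beside 30.5% of all genes tested) and 22 did not pass, while 7 had no count in any library. The median log2 fold change of the 45 was −0.03, beside −0.0038 over all genes tested. After summing the knockout-labelled pair, 14 of the 45 were called, beside 1981 of all 15327.

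Among genes of retinol uptake, binding and storage, 1 of 5 tested rose and 2 fell (60% called). Over all genes tested, 13.7% were called higher and 16.8% lower. Rbp4, the plasma carrier of retinol, went from 11.3 and 13.1 to 3.43 and 3.42 CPM (log2 fold change −1.83, SE 0.141, adjusted p = 0.00032, edgeR). Dgat1, an acyltransferase that makes triglycerides and can esterify retinol, went from 81.3 and 88.4 to 19.4 and 18.7 CPM (log2 fold change −2.16, SE 0.0767, adjusted p = 1.6e-05, edgeR). Both thus fell without overlap. Lrat, the main retinol esterifying enzyme, had no count, and Stra6, the retinol uptake receptor, had none outside knockout-labelled replicate 2 (0.126 CPM).

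Of 12 tested enzymes that interconvert retinol and retinaldehyde, 1 rose and 5 fell (50% called), beside 13.7% higher and 16.8% lower of all genes tested. Dhrs3, which reduces retinaldehyde back to retinol, measured 126 and 110 CPM across control-labelled and 151 and 154 CPM across knockout-labelled libraries (log2 fold change 0.37, SE 0.0804, adjusted p = 0.017, edgeR). The 4 genes that fell by more than 2-fold were scarce, at no more than 6.35 TPM in any library. Adh1 had a log2 fold change of −1.39 (SE 0.185), Rdh12 of −1.30 (0.317), Dhrs9 of −1.29 (0.175) and Adh7 of −1.25 (0.317), with adjusted p-values from 0.0029 to 0.029 (edgeR). After summing the knockout-labelled pair, the adjusted p was 0.121 for Dhrs3, 0.114 for Rdh12 and 0.0527 for Adh7 (edgeR). Rdh11 fell by 0.27 in log2 units (adjusted p = 0.044, edgeR). Adh5, the alcohol dehydrogenase found in all cells, measured 102 and 107 CPM against 103 and 103 CPM (log2 fold change −0.02, SE 0.0588, adjusted p = 0.826, edgeR). Rdh10, which makes most retinaldehyde in the embryo, measured 13.8 and 15.2 against 14.4 and 15.1 CPM (adjusted p = 0.882, edgeR), overlapping between the groups.

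Among partners of the receptors and further binding or clearing proteins, 6 of 10 tested rose and none fell (60% called). The shares over all genes tested were 13.7% higher and 16.8% lower. Those that rose included the coactivators Ncoa1, Ncoa2 and Ncoa3 and the corepressors Ncor1 and Nrip1, which bind nuclear receptors in general and not only those of retinoic acid. Their log2 fold changes ran from 0.22 (Ncoa1) to 0.55 (Nrip1), with adjusted p-values from 0.0026 to 0.038 (edgeR). Rxra, the common partner of the receptors, measured 220 and 209 against 217 and 211 CPM (log2 fold change −0.01, SE 0.0604, adjusted p = 0.947, edgeR). Fabp5, which can carry retinoic acid to Ppard, measured 235 and 221 against 237 and 234 CPM (log2 fold change 0.05, SE 0.0614, adjusted p = 0.609, edgeR). Cyp26a1, the Cyp26 gene whose promoter holds the other DR5, had a single count, in control-labelled replicate 2, and Cyp26c1 was at or below 0.126 CPM in every library, so that Cyp26b1 was the one hydroxylase of this family measured above the filter.

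Among genes that retinoic acid is known to regulate in some tissues, 2 of 18 tested rose and 6 fell (44.4% called). All genes tested gave 13.7% higher and 16.8% lower. Meis2, a homeobox gene of the proximal limb, went from 3.31 and 2.80 to 10.6 and 11.6 CPM (log2 fold change 1.86, SE 0.15, adjusted p = 0.00039, edgeR). The groups did not overlap.

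The 2 largest called changes in this list by log2 fold change, apart from the sparse Ucp1, were falls. Gprc5a, named for its induction by retinoic acid, went from 46.9 and 49.8 to 0.413 and 0.314 CPM (log2 fold change −7.06, SE 0.148, adjusted p = 2.9e-06, edgeR). Bhlhe40, a transcription factor of the clock and of hypoxia responses, went from 143 and 127 to 27.7 and 27.8 CPM (log2 fold change −2.29, SE 0.08, adjusted p = 1.5e-05, edgeR). Ucp1, the uncoupling protein of brown fat, had 15 and 20 counts against 2 and 0, a control to knockout ratio of 15.8 with an exact 95% interval for counting error from 4.06 to 136. Gprc5c, Rarres1 and Gprc5b fell by 1.16, 1.08 and 0.98 on the log2 scale, with adjusted p-values of 0.024, 0.0015 and 0.0028 (edgeR), of which the first became 0.121 after summing the knockout-labelled pair. Without knockout-labelled replicate 2 the adjusted p of Ucp1 was 0.103 (edgeR). Tgm2, a transglutaminase often used as a readout of retinoic acid, measured 151 and 112 against 122 and 124 CPM, and its groups overlapped (log2 fold change −0.09, SE 0.133, adjusted p = 0.651, edgeR). Its counts may hold reads of Rprd1b, which overlaps it on the opposite strand. Stra8 and Hoxb1, direct targets in germ cells and hindbrain, had no count.

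**Figure D3:**
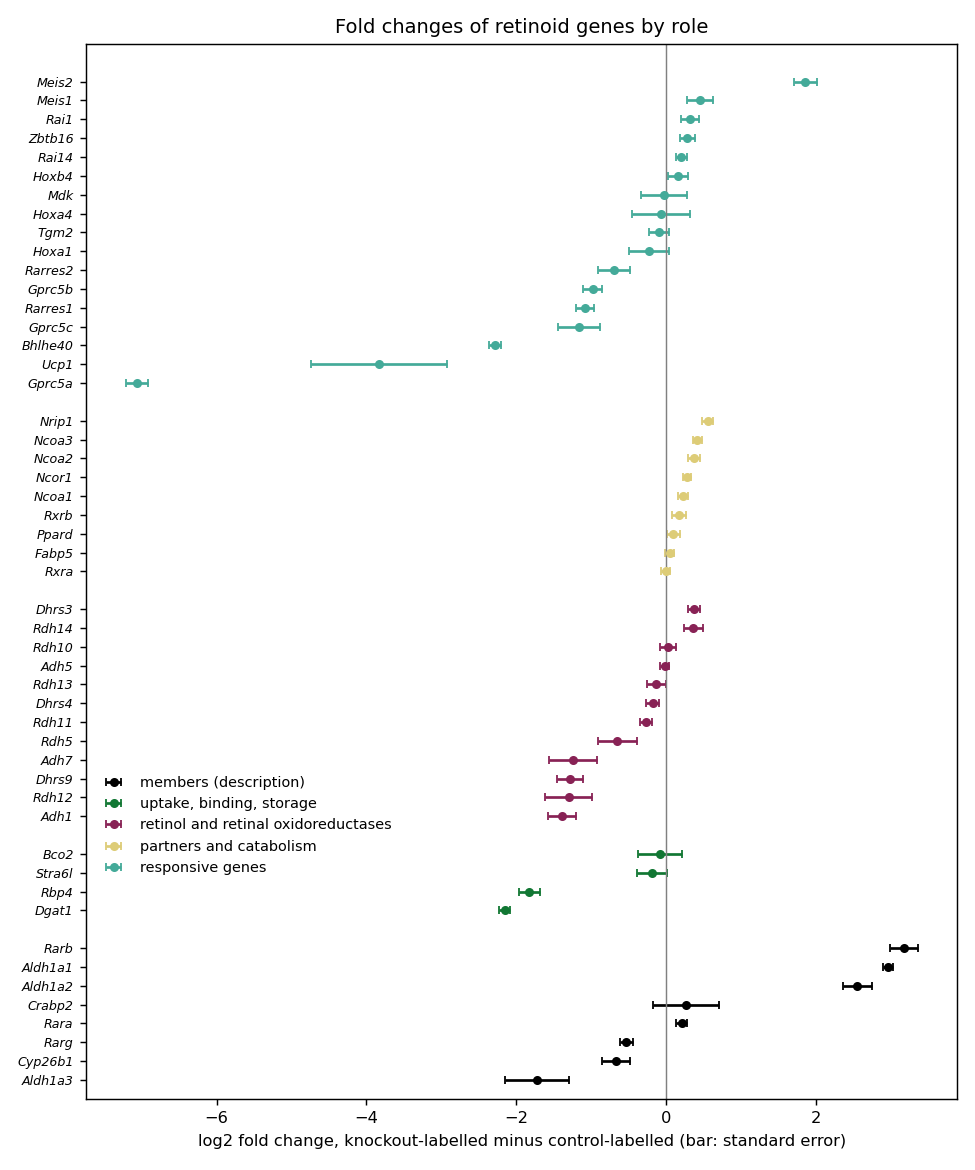
Log2 fold change (knockout-labelled minus control-labelled, x axis) of tested retinoid genes, grouped by role and coloured by group, with bars of 1 standard error. Rarb, Aldh1a1 and Aldh1a2 lie beyond 2 to the right, and Gprc5a lies furthest left at −7.06.

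DR5 windows were also counted across the genome. They belonged to 31 genes, of which 6 were tested. Rarb, one of these 6, was chosen on this contrast, so its rise is not counted here. Of the others Gm4631 was called higher, Syndig1 lower, and Blvrb, Cfap45 and Tnfsf13b were not called, beside 30.5% of all genes tested. The median log2 fold change of the 6, Rarb included, was 0.16, and nothing is read from it. Gm4631 measured 50.5 and 46.8 against 60.3 and 60.7 CPM. Syndig1 was close to the limit of detection, at 0.562 and 0.354 against 0.0413 and 0 CPM, and no fold is given for it.

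Of 15 other members of the aldehyde dehydrogenase family tested, 3 rose (Aldh2, Aldh3a2 and Aldh4a1), 5 fell and 7 did not pass, with a median log2 fold change of −0.15. The share called was 53.3%, beside 30.5% of all genes tested, and after summing the knockout-labelled pair 6 of the 15 were called, beside 1981 of all 15327. Aldh2, the mitochondrial enzyme that clears acetaldehyde, was the most abundant per length, at 779 and 712 TPM in the control-labelled libraries and 901 and 946 TPM in the knockout-labelled ones. In CPM its log2 fold change was 0.24 (SE 0.0705, adjusted p = 0.046, edgeR), and after summing the knockout-labelled pair the adjusted p was 0.332. Aldh3a2, which oxidises fatty aldehydes, had a log2 fold change of 0.25 (SE 0.0698, adjusted p = 0.041, edgeR), and an adjusted p of 0.255 after that summing.

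Among the 5 that fell, apart from Aldh1a7, Aldh3a1 fell from 9.02 and 7.89 to 2.56 and 1.95 CPM (log2 fold change −1.92, SE 0.19, adjusted p = 0.0009, edgeR). Aldh1l2 and Aldh1l1, folate enzymes of mitochondria and cytoplasm, fell by 1.52 and 1.43 in log2 units (adjusted p = 0.00012 and 0.00031, edgeR). Aldh18a1, of proline synthesis, fell by 0.76 (adjusted p = 0.0028, edgeR).

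The genes nearest to Aldh1a1 in pattern were found by the Euclidean distance between log2 CPM profiles over the 4 libraries, each centred on its own mean, among 15327 genes. Efemp1, an extracellular matrix fibulin, was nearest at a distance of 0.0188, with 53.6 and 51.8 against 417 and 411 CPM. F3, the coagulation tissue factor, followed at 0.0961, with 7.22 and 7.32 against 55 and 53.5 CPM. Nkain2, a partner of the sodium pump, stood at 0.144, Ebf2, a transcription factor of fat precursors, at 0.174, and Islr2 at 0.189. Nkain2 had only 3 and 2 counts in the control-labelled libraries against 29 and 34, a ratio of 13.9 with an exact 95% interval for counting error from 5.67 to 44.4. With 4 libraries, likeness of profile mostly means a like difference between the groups.

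**Figure D4:**
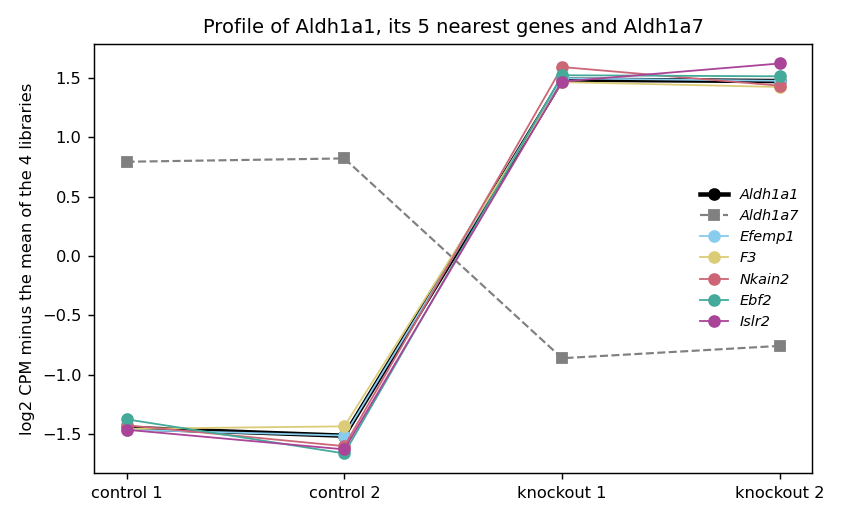
Log2 CPM (prior count of 2) minus the mean over the 4 libraries for Aldh1a1, its 5 nearest genes and Aldh1a7, with 1 point per library. Aldh1a1 and the 5 genes lie between −1.66 and −1.37 in the control-labelled libraries and between 1.42 and 1.62 in the knockout-labelled ones, while Aldh1a7 lies above 0 in the former and below 0 in the latter.

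Markers of other cell types are given beside these values, and their part in them was not tested. Their counts called are set beside 30.5% of all genes tested, as a description. Summed over 12 stromal markers, CPM was 4817 and 4626 in the control-labelled libraries and 3155 and 3199 in the knockout-labelled ones. Of these markers 4 were higher (Thy1, Prrx1, Pdgfrb and Pdgfra) and 6 lower (83.3% called). The collagen genes held most of the sum, with Col1a1 at 1896 and 1921 against 1225 and 1259 CPM. Col1a2 stood at 1862 and 1759 against 811 and 829 CPM, so the sum mainly follows these genes. Over 12 macrophage markers the sum was 20760 and 24980 against 27090 and 27270 CPM. Of these markers 4 were higher and none lower (33.3% called), beside 13.7% higher and 16.8% lower of all genes tested. Lyz2 held most of that sum, at 10980 and 15930 against 15630 and 15710 CPM, and was not called (adjusted p = 0.342, edgeR). Over 6 chondrocyte markers the sum was 3668 and 3742 against 86.1 and 85.1 CPM, and all 5 that were tested fell (100% called). None of the markers of these lists was at 0 in all libraries. Over 6 osteoblast markers the sums were 6162 and 15010 against 5865 and 5801 CPM (5 lower, 83.3% called). Spp1 held most of those sums, at 5863 and 14630 against 5694 and 5626 CPM, and was not called (adjusted p = 0.131, edgeR). Over 6 adipocyte markers the sums were 118 and 133 against 194 and 196 CPM (3 higher, 1 lower, 66.7% called). Over 6 endothelial markers the sums were 11 and 9.66 against 26.4 and 24 CPM (3 of 4 tested higher, 75% called). Those higher were Kdr, Emcn and Vwf. Cdh5 was lower, at 0.414 and 0.389 against 0.165 and 0.188 CPM, and was not called (adjusted p = 0.128, edgeR). Pecam1 and Tek were not tested. Pecam1 was lower, at 0.266 and 0.248 against 0.165 and 0.157 CPM, and Tek higher, at 0.207 and 0.0708 against 0.619 and 0.282 CPM.

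The peak list, which is 1 list for all MeRIP-Seq samples, was searched for the 9 genes by the position of each peak's summit on mm9. Of the 8 tested genes only Rara held a peak, and Crabp1 held none either. Of the 14118 genes tested that have a model on mm9, 40.1% held a peak, and 43.4% of those with at least 1 TPM in the control-labelled libraries did. The share depended on level, at 13.5% of genes under 1 TPM, 38.4% from 1 to 10 TPM, 50.0% from 10 to 50 TPM and 40.9% from 50 TPM on. Aldh1a3, Rarb and Crabp2 stood in the first of these ranges, Aldh1a2 in the second, Rara, Rarg and Cyp26b1 in the third, and Aldh1a1 in the last.

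Rara held 2 peaks, one on each side of its coding sequence. The first (chr11:98811692-98811917 on mm9) had its summit in the 5′UTR, in exon 2 of 9, with a pileup of 43 fragments, a fold enrichment of 4.03 and a −log10 q of 11.5, from a column with an unreadable header that was taken as q by its place. The second (chr11:98834648-98835241 on mm9) had its summit in the 3′UTR, in the last exon and 136 bases past the stop codon. It was the stronger of the pair, with a pileup of 129, a fold enrichment of 4.56 and a −log10 q of 39.6, which ranked 394th of 10160 peaks by q. The stretch around the GGAC nearest to the summit of the first peak is shown because GGAC is a core form of the m6A motif. Capitals mark it, and the peaks held 5 and 8 copies of it. The sequence was read from NCBIM37 (mm9), plus strand, at chr11:98811757-98811786.

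Rara first peak: gttgactaacttgGGACttgcagctccagg

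The absence of a peak for the other genes says only that none was listed at this depth, which is unknown for the MeRIP-Seq samples. The other retinoid genes held peaks in 20 of 45 (44.4%), near the share of all genes. They were uneven by role, with 10 of 10 receptor partners and binding proteins holding a peak, 7 of 18 responsive genes, 3 of 12 oxidoreductases and none of 5 uptake and storage genes. Among the other aldehyde dehydrogenases 4 of 15 held one (Aldh2, Aldh16a1, Aldh18a1 and Aldh1b1), and Aldh1a7 held none.

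**Figure D5:**
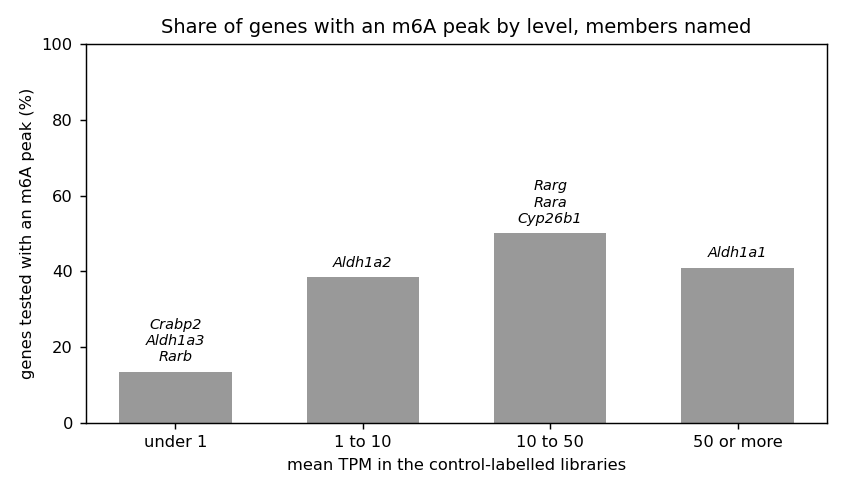
Percent of tested genes that hold an m6A peak (y axis, bars from 0) by mean TPM in the control-labelled libraries (x axis), with the tested retinoic acid genes named above the bar of their range. The bars run from 13.5% to 50.0%, and Rara is the one named gene that holds a peak.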

How the data were processed

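The 9 genes and all gene lists were chosen with earlier results of these data known. For RNA-seq the authors mapped reads with HISAT2 2.0.4 and tested genes with Ballgown; per the labels' processing notes the builds were mm10 and mm9. The deposited table gives an estimated count per gene and library, without normalization, from a counting program and strand setting not given in the sources used here. It also gives deposited values headed FPKM whose sum is the same in every library, which makes them TPM. The deposited peak list holds, from the authors' peak caller in MACS2 layout, the pileup signal, the q-value as −log10 (that column's header is a spreadsheet error, so it was identified by its place in the layout), and the fold enrichment as a ratio to nearby signal. Pooling is not stated. Positions and gene lengths are in bases as deposited.

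Of 47732 entries, 47643 had a name. The 89 without one, 0.110% to 0.125% of a library's counts, were left out. Estimated counts were rounded, kept where they passed filterByExpr and fitted after TMM scaling in edgeR 4.0.16 (glmQLFit, glmQLFTest, two-sided, Benjamini-Hochberg over 15327 genes, threshold 0.05) in R 4.3.3. Standard errors came from the fold change and its F statistic. DESeq2 1.42.0, limma 3.58.1, a replicate block, other filters and scalings, leaving out each library and summing the knockout-labelled libraries were the alternatives. For 1 gene, 2 libraries a group allow an exact permutation p of 0.333 at the least. Scripts were tested on simulated data. Besides the 9 genes, Aldh1a7 and Mettl3, each list contributed its 2 genes with the highest mean TPM and up to 6 called genes of at least 2-fold, and the 5 genes nearest to Aldh1a1 were added, apart from a few results that are not reported here. Gprc5b, Rdh10, Rdh11, Rxra, Aldh4a1, Aldh18a1, the coregulators, Stra6, Lrat, Stra8, Hoxb1, Cyp26a1, Cyp26c1 and the tested genes with a DR5 were named after their values were seen. Peaks were assigned on GENCODE vM1 (NCBIM37), and promoters were from RefSeq (GRCm38.p6). Intervals on counts hold for counting error alone, as reads here carry no molecular identifiers.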

Additional observations from a re-analysis of the deposited data

How the results depend on the processing

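Among the other named retinoid and aldehyde dehydrogenase genes, 12 stayed on the same side of the threshold with the same sign under all 11 alternatives (Rbp4, Dgat1, Adh1, Dhrs9, Bhlhe40, Gprc5a, Meis2, Rarres1, Aldh1a7, Aldh3a1, Aldh1l1 and Aldh1l2). For the 9 genes, chosen on this contrast, the alternatives are given as a description from which nothing is read. The log2 fold change ranged from 2.92 to 3.06 for Aldh1a1, from 2.27 to 2.95 for Aldh1a2 and from 1.88 to 3.28 for Rarb. Aldh1a3, Rarg and Cyp26b1 kept their sign but lost the call under 5, 3 and 5 of the 11 alternatives, and Rara gained one when either control-labelled library was left out.

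The count of called genes differed between alternatives. Over the whole table it was 4677, and 2534 or 2472 with limma on log2(TPM + 0.1) or log2(TPM + 1), 1981 with the knockout-labelled libraries summed, and 1889 to 8719 when 1 library was left out, the lower values without a knockout-labelled library and the higher without a control-labelled one. Of the 9 genes 6 were called, 3 with limma on log2(TPM + 1) and 3 with the knockout-labelled libraries summed, and 3 to 7 when 1 library was left out. Of the other retinoid genes 23 were called, 15 with limma at either pseudocount, 14 with the knockout-labelled libraries summed and 12 to 33 when 1 library was left out. Of the other aldehyde dehydrogenases 8 were called, 5 with limma at either pseudocount and 6 to 12 when 1 library was left out. Leaving out a library leaves 1 in its group, which is then assumed to vary like the other group.

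The replicate numbers are shared between the groups only as numbers, with a correlation of 0.032 between the deviations of same-numbered libraries. With the replicate number as a block, 4881 genes were called over the whole table, 6 of the 9, 24 other retinoid genes and 7 other aldehyde dehydrogenases, and Aldh2 lost its call (adjusted p = 0.0562, range over its alternatives 1.9e-30 to 0.411). Among the 38 genes refitted under every alternative, no other changed its call under the block.

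The sign turned only for genes close to 0. With 1 library left out, Crabp2 ranged from −0.026 to 0.561, Mettl3 from −0.0823 to 0.0187, Fabp5 from −0.00026 to 0.0964, Adh5 from −0.0481 to 0.0097 and Tgm2 from −0.29 to 0.147, called lower without control-labelled replicate 2 (the first of these values) and higher without control-labelled replicate 1 (the second, adjusted p = 0.00075, edgeR). With limma on log2(TPM + 0.1) and log2(TPM + 1), Adh5 gave 0.079 and 0.078 and Tgm2 0.026 and 0.025. The cause was not tested. Rara was the one gene of the 9 with a peak also when only peaks with a −log10 q of at least 5, or peaks overlapping an exon, were used.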

Other observations

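The genes next to the ones that differed most were looked at after the values were seen. Of the tested genes within 1000000 bases of Aldh1a1 on GRCm38, Anxa1, which encodes the phospholipid-binding protein annexin A1 and starts 211017 bases away, rose from 695 and 679.5 to 1081 and 1082 CPM (log2 fold change 0.65, SE 0.0551, adjusted p = 0.00046, edgeR). Gda, the guanine deaminase, went from 225 and 290.1 to 337 and 342 CPM (0.40, adjusted p = 0.0445, edgeR), and Zfand5 (adjusted p = 0.171, edgeR) and 1110059E24Rik (adjusted p = 0.465, edgeR) did not pass. Aldh1a7 was the one tested gene of this stretch that fell. Over all genes tested, 13.7% were called higher and 16.8% lower. Around Rarb, Top2b, whose gene ends 55 bases from the downstream end of Rarb, measured 113 and 104 against 117 and 125 CPM (adjusted p = 0.132, edgeR). Neither Ngly1 (adjusted p = 0.993, edgeR) nor Oxsm (adjusted p = 0.858, edgeR) passed. Within the same distance of Aldh1a2, calls went both ways. Myzap, Gm10642, Tcf12, Fam63b and Rnf111 were called higher, and Ccnb2 and Myo1e lower. The other tested genes around Aldh1a2 did not pass.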
